A study of Mus musculus with 9 samples.

Results

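Messenger RNA levels were compared between 3 libraries labelled Pam3CSK4 and 3 libraries labelled untreated, taken after 6 h from macrophages that had been derived in culture from the bone marrow of C57BL6 mice. Such cells are phagocytes of the innate immune system. The untreated label stands for PBS and the Pam3CSK4 label for 100 µg/ml of the lipopeptide; the labels name no genotype beyond the strain, and neither an age nor a sex. The 6 libraries were chosen from the 9 of the study by these labels, and the other 3, labelled with Pam3CSK4 and 3SL at 100 µl/ml, entered only the filter on low counts, the scaling and the estimate of the spread. All 22001 genes of the deposited table were considered, and 11469 had enough counts to be tested. The library codes are A2, B2 and C2 on the untreated-labelled side and D1, D2 and D3 on the Pam3CSK4-labelled side, so the label and whatever the letter D stands for cannot be told apart. Separate cultures or animals are not stated for the replicates, whose spread, on which every p-value rests, may therefore be technical only.

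Pam3CSK4 is a synthetic lipopeptide that Toll-like receptor 2 recognises together with Toll-like receptor 1. The receptors signal through MyD88 to NF-κB and the MAP kinases, and macrophages answer with cytokines, feedback inhibitors, surface receptors and, through secreted interferon, antiviral genes. Activated macrophages are also known to take up more glucose for glycolysis and to leave the cell cycle.

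The genes of that response ran against the labels. Il1b (ENSMUSG00000027398; chromosome 2, 129364570 to 129371139, minus strand on GRCm38), which encodes interleukin-1 beta, stood at 10260.2, 10559 and 9661 CPM in A2, B2 and C2 and at 7.36, 4.305 and 7.03 CPM in D1, D2 and D3. CPM are counts per 1000000 of the library size scaled by edgeR's TMM factors, and triplets of values below keep this order of libraries. Tnf (ENSMUSG00000024401; chromosome 17, 35199381 to 35202007, minus strand) stood at 1731, 1729 and 1651 CPM in the untreated-labelled and 18.9, 17.6 and 18.6 CPM in the Pam3CSK4-labelled libraries, and Tlr2 (ENSMUSG00000027995; chromosome 3, 83836272 to 83841767, minus strand), the lipopeptide receptor itself, at 1208, 1203 and 1184 against 51.7, 51.3 and 54.6 CPM. All 3 genes were thus high in each library labelled untreated and low in each labelled Pam3CSK4. The groups were kept as labelled, "higher" and "lower" always describe the Pam3CSK4-labelled libraries against the untreated-labelled ones, and each direction rests on those labels.

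Total counts ran from 10203040 to 43980309 per library, with B2 the deepest. Replicates of a group differed by more than counting noise (chi-square per degree of freedom 1.83 to 2.91), and each was kept as a replicate of its own. All 10 macrophage markers were tested. They made up 2.33% to 2.35% of counts in the untreated-labelled and 2.01% to 2.06% in the Pam3CSK4-labelled libraries. With TMM factors 7 of them were called lower, 3 at least 2-fold, and 3 were called higher, 1 at least 2-fold. With library size only 4 were called lower and 3 higher. Adgre1, which encodes F4/80, was 3.32-fold lower and Cd14 10.6-fold lower, while Mrc1 was higher by a log2 change of 1.27. The 13 markers of neutrophils and their progenitors together held 0.0524% to 0.0670% of counts in every library, the 11 dendritic cell markers 0.0414% to 0.0449% in the untreated-labelled and 0.0191% to 0.0199% in the Pam3CSK4-labelled libraries, the lymphocyte markers at most 0.00156%, and the stromal and endothelial markers 0.00193% to 0.00237% against 0.00575% to 0.00631%. The stromal and endothelial difference was mostly that of Kdr, a receptor for vascular endothelial growth factor, which was 9.34-fold higher. The 11 erythroid, megakaryocyte, mast cell and basophil markers held 0.0458% to 0.0490% in the untreated-labelled and 0.0279% to 0.0296% in the Pam3CSK4-labelled libraries. In bulk RNA, fewer cells of a type and less RNA per cell cannot be told apart, and the part of these markers in the results below was not tested.

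In all, 8597 of the 11469 tested genes (75.0%) were called, that is passed edgeR's quasi-likelihood test at a Benjamini-Hochberg adjusted p under 0.05. Of the tested genes 39.0% were called higher and 35.9% lower. Changes of at least 2-fold were called for 24.0% of tested genes, 13.2% of them higher and 10.8% lower as shares of all tested genes, and changes of at least 4-fold for 3.79% higher and 5.26% lower. The median log2 change was 0.03, and the median of its absolute value 0.45. With library size only in place of TMM factors the median was 0.34 and 74.3% of called genes were higher, against 52.0% with TMM. Small shifts of whole gene families therefore depend on the scaling, and the count under library size only is given wherever it turns a family's direction. The same holds for single genes called lower by little. Among the list members named below, Tkt, Orc4 and Fcgr3 were called higher with library size only (log2 changes 0.13, 0.15 and 0.11). With that scaling Rbbp8, Aim2, Ercc1, Pttg1, Fcgr1, Fcgr4 and H2-D1 were no longer called. Because 3 of 4 tested genes were called, the counts below are read against these shares and against the 2-fold shares in particular.

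The shares of genes called higher and lower differed between levels of expression. Levels were divided by exon length (RPKM, CPM per kilobase of exon) so that genes could be compared with each other. Among 5445 tested genes with a mean level of 1 to 10 RPKM over the 6 libraries 46.5% were called higher and 28.4% lower. Among 388 genes of 100 to 1000 RPKM the order was turned, with 21.1% higher and 66.0% lower. For changes of at least 2-fold, 22.6% of genes below 1 RPKM were higher and 13.02% lower, whereas 3.87% of those at 100 to 1000 RPKM were higher and 26.3% lower. The 27 genes of at least 1000 RPKM had 6 members at least 2-fold lower and 0 at least 2-fold higher (8 were called higher at any size). By CPM in place of RPKM the lowest class differed, with 18.5% of 394 genes below 1 CPM at least 2-fold higher and 20.8% lower, while 6.23% and 18.2% were so at 100 to 1000 CPM. The median absolute log2 change, 0.64, 0.45, 0.39, 0.47 and 0.36 from the lowest to the highest RPKM class, had no steady order, and the median SE was 0.28 in the lowest class. With library size only, 31.2% of the lowest RPKM class were at least 2-fold higher and 10.1% lower, and 5.41% and 21.4% of the class of 100 to 1000 RPKM, while, with library size only, the share called higher was above the share called lower in each of the 5 classes.

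**Figure D1:**
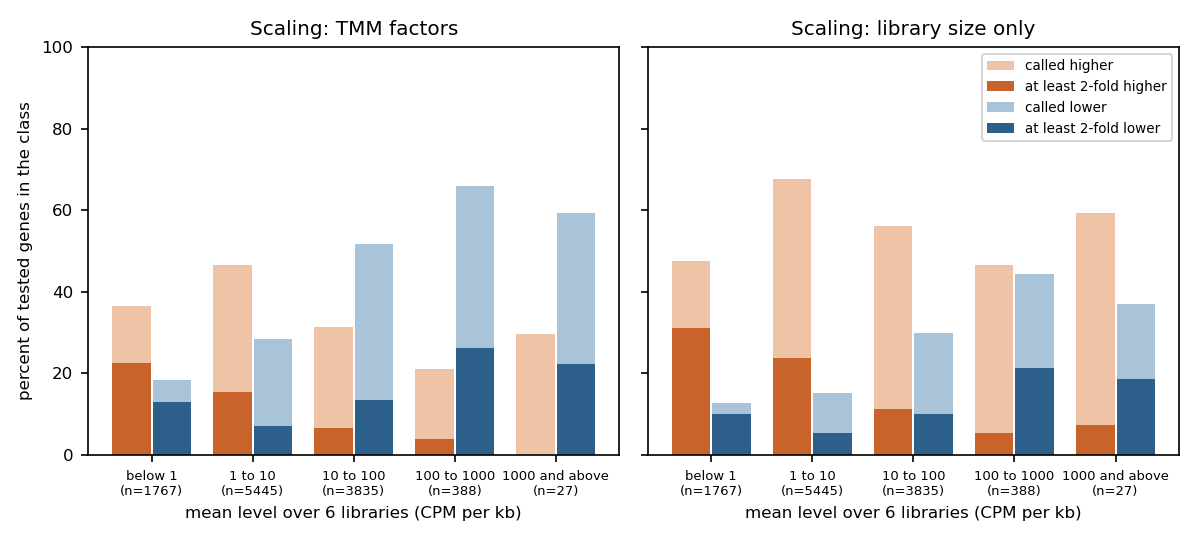
Percent of tested genes called higher (orange) and lower (blue) in the Pam3CSK4-labelled libraries by mean level over the 6 libraries in CPM per kilobase of exon, with TMM factors on the left and with library size only on the right; pale bars count every called gene and dark bars those changed at least 2-fold. Dark orange falls from 22.6% to 0% and dark blue stands between 7.07% and 26.3% over the classes on the left, and under library size only the pale orange bar is the taller one in every class.

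Genes that crossed the whole range were mostly of the untreated-labelled side. In the untreated-labelled libraries 51 genes stood at 10 RPKM or more that stood below 1 RPKM in the Pam3CSK4-labelled ones, and 11 did the reverse. Outside the cytokines, the 51 included Lox, the collagen cross-linking lysyl oxidase (96.1 to 0.271 RPKM), Slc7a11 (67.2 to 0.471 RPKM), the ectoenzyme gene Cd38 (52.9 to 0.245 RPKM), the ferroxidase gene Cp (35.3 to 0.226 RPKM), the adenylate kinase gene Ak4 (25.7 to 0.800 RPKM), the uridine phosphorylase gene Upp1 (25.1 to 0.0884 RPKM) and the tyrosine kinase gene Src (23.5 to 0.390 RPKM). The 11 of the other side were Nanos1 (0.230 to 14.7 RPKM), Cd28 (0.800 to 20.6 RPKM), Cdca7l (0.683 to 19.9 RPKM), Rnf144b, Fam198b, Angptl2, the replication genes Wdhd1 and Timeless, Susd3, Kctd12b and Ccsap. At the top of the range, 31 genes fell from at least 100 RPKM to below 10 RPKM and 1 did the reverse, while 284 stayed at 100 RPKM or more in both groups.

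This changed the make-up of the libraries. Between any untreated-labelled and any Pam3CSK4-labelled library 23.8% to 24.4% of the counts fell on other genes, against 1.73% to 2.19% between libraries of a group. The 603 genes called at least 4-fold lower took 15.9% to 16.3% of the counts of the untreated-labelled libraries and 1.93% to 1.96% of those of the Pam3CSK4-labelled ones. The 435 genes called at least 4-fold higher took 0.297% to 0.305% and 2.51% to 2.52%. For 8 genes there were at least 10 counts in each untreated-labelled library and none in the Pam3CSK4-labelled ones: Sh2d4a, Il1f6, Plet1, Ifitm7, Csf2, Adgrf1, Rnase10 and U90926. Set against a floor of 3 counts over the group, these were at least 16.4-fold to at least 47.5-fold lower. By the same rule no gene had counts in the Pam3CSK4-labelled libraries alone. The rule was stricter there, because absence had to hold in B2 as well, with 43980309 counts. The Pam3CSK4-labelled libraries held 10954186 to 15259545.

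Genes were also ordered by their difference in mean CPM. The 10 largest gains were those of Gpnmb, a glycoprotein of lysosomes and melanosomes (from 7619, 7619 and 7663 to 12578, 12953 and 12488 CPM), the lysosomal genes Ctsb, Psap, Ctsd, Lipa and Ctsl, the lectin gene Lgals3, the metalloprotease gene Adam8, the urokinase gene Plau and BC005537. All but Adam8, Lipa, Plau and BC005537 were changes of less than 2-fold. The 10 largest losses were those of Il1b, Fth1, Saa3, Ccl9, Il1a, Acod1, Cybb, Plek, Adgre1 and Ccl3. Acod1, which makes itaconate, went from 4350.2, 4482 and 4238 to 6.96, 4.305 and 5.502 CPM, and Cybb, the catalytic chain of the phagocyte NADPH oxidase, from 4741, 4663 and 4829 to 772, 779 and 752 CPM.

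Genes of DNA replication were higher almost throughout. Before S phase, origins are licensed when ORC, CDC6 and CDT1 load the MCM helicase, which CDC45 and the GINS complex then activate. Of 26 tested licensing and helicase genes 24 were called higher, 21 of them at least 2-fold, with a median log2 change of 2.34 against 0.03 for all tested genes. Cdc6 stood at 2.47, 2.53 and 3.18 CPM in the untreated-labelled and at 46.7, 41.04 and 41.9 CPM in the Pam3CSK4-labelled libraries, a rise of 16.4-fold. Mcm6 (ENSMUSG00000026355; chromosome 1, 128331590 to 128359664, minus strand) stood at 35.98, 37.3 and 30.9 and 403, 385 and 379 CPM, a log2 change of 3.45 ± 0.05 (SE) (adjusted p = 2.69e-28). No Pam3CSK4-labelled library overlapped an untreated-labelled one for either gene. The 6 helicase subunits rose together, Mcm2 by 14.5-fold, Mcm7 by 11.2-fold, Mcm6 by 10.9-fold, Mcm4 by 9.75-fold, Mcm3 by 6.87-fold and Mcm5 by 6.63-fold. Gmnn, the inhibitor that blocks a repeat of licensing, rose by 8.51-fold, Cdc45 by 6.23-fold and Cdt1 by 11.01-fold. The origin recognition subunits stood apart from each other. Orc1, the subunit that is renewed in each cycle, rose by 5.65-fold, Orc6 by 3.13-fold, Orc2 by 1.54-fold and Orc5 by 1.38-fold, Orc3 was not called (51.2 and 50.6 CPM), and Orc4 was 1.12-fold lower. The call of Orc4 was lost without A2, without D2 or without D3, its log2 change of -0.17 turned to 0.15 with library size only, and the gene overlaps Mbd5 and Acvr2a on the other strand.

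At the fork, 29 of 30 tested polymerase, clamp and ligase genes were called higher, 26 of them at least 2-fold (median log2 change 1.92). Wdhd1, which ties the helicase to polymerase alpha, stood at 5.89, 5.57 and 5.73 against 78.8, 83.9 and 79.2 CPM, 14.2-fold higher. Pcna, the sliding clamp, was at 148, 148 and 141 against 548, 534 and 526 CPM, 3.67-fold higher. Lig1, which seals Okazaki fragments, was 7.12-fold higher, the polymerase genes Pole2, Pole, Pola1 and Pold1 9.08-fold, 7.17-fold, 6.38-fold and 5.303-fold, and the histone chaperone genes Chaf1b and Chaf1a 10.6-fold and 5.73-fold. The small accessory subunits moved least: Pole4 was 1.11-fold higher and Pold4 was not called, at 19.8 and 21.8 CPM.

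Recombination genes, which mend breaks and stalled forks, changed in the same way. Of 32 tested homologous recombination and Fanconi anaemia genes 30 were called higher, 23 at least 2-fold (median log2 change 1.92). The exonuclease gene Exo1 stood at 1.9002, 2.41 and 2.01 against 27.6, 26.3 and 25.6 CPM, 11.9-fold higher, and Brca1 (ENSMUSG00000017146; chromosome 11, 101488764 to 101551955, minus strand) at 5.32, 7.23 and 5.83 against 57.2, 53.6 and 59.7 CPM, a log2 change of 3.13 ± 0.09 (SE) (adjusted p = 4.68e-22). Brca2 rose by 7.75-fold, its partner Palb2 by 4.29-fold and the recombination helicase gene Rad54l by 7.17-fold. The monoubiquitinated pair of the Fanconi pathway, Fancd2 and Fanci, rose by 3.98-fold and 4.96-fold. Rbbp8, the resection factor CtIP, was 1.24-fold lower with TMM factors, a log2 change that turned to 0.0039 with library size only.

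**Figure D2:**
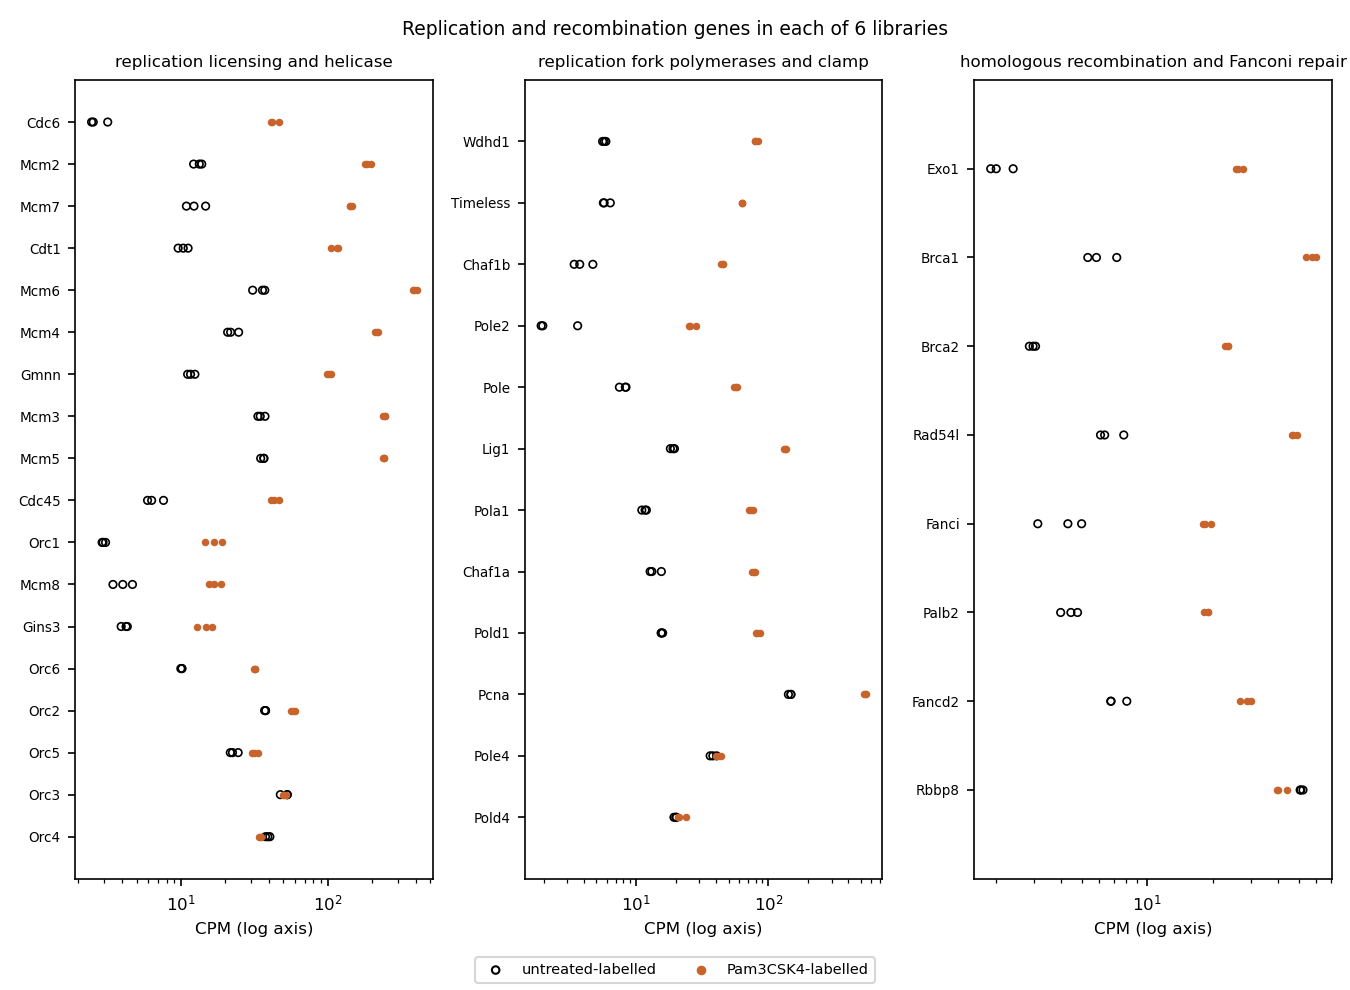
CPM on a log axis of the licensing, fork and recombination genes named in the text in the 3 untreated-labelled (open) and the 3 Pam3CSK4-labelled (filled) libraries, ordered by fold within each panel. Filled points lie to the right of open ones for nearly all genes, by 16.4-fold for Cdc6 and 14.2-fold for Wdhd1 at the top, and Orc4 and Rbbp8 at the foot of their panels have the reverse order with TMM factors; with library size only their log2 changes were 0.15 and 0.0039.

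Promoter windows of these genes often held an E2F site. E2F factors bind such sites and are known to drive S phase genes once RB is phosphorylated. The site was searched as TTTCCCGC or TTTGGCGC on both strands in RefSeq windows of 300 bases (250 before to 50 after a start, GRCm38.p6), which matched 9137 of the tested genes by symbol. It was in 9 of 26 windows of licensing genes (34.6%; Cdc6, Cdt1, Gins3, Mcm3, Mcm5, Mcm6, Mcm7, Mcm8 and Orc3), in 22.6% of windows of fork genes and in 15.4% of those of recombination genes. The share was 1.56% over all 32851 windows and 2.93% over the windows of tested genes. It was 8.29% for the genes called at least 4-fold higher and 1.002% for those called at least 4-fold lower. Orc3 has the site and was not called, and most members of the 3 lists were higher with no match in their window. The 250 bases before the start of Mcm6 (chr1:128359706-128359955, minus strand) are shown because they hold the site in 2 copies, in capitals, which begin 110 and 47 bases before the start:
Mcm6: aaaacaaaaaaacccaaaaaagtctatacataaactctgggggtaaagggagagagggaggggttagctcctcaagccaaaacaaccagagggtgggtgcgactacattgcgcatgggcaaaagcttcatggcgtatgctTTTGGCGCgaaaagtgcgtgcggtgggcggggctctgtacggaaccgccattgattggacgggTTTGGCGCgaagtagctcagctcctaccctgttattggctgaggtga

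Mitotic genes rose too, with smaller folds. Of 47 tested genes 44 were called higher, 23 of them at least 2-fold, and the median log2 change of 0.99 was below that of the licensing genes. The kinetochore gene Cenpk stood at 3.86, 4.101 and 3.499 against 18.1, 19.4 and 20.8 CPM (4.94-fold higher), and Ccna2, cyclin A2, which serves S phase and entry into mitosis, at 52.5, 52.2 and 51.1 against 136, 132 and 130.1 CPM (2.55-fold higher). The condensin genes Ncaph, Ncapd2 and Ncapg were 3.83-fold, 3.17-fold and 2.76-fold higher. Cdk1, the mitotic kinase, was 1.93-fold higher and its cyclins Ccnb2 and Ccnb1 1.601-fold and 1.398-fold. Of the genes around anaphase, Cdc20, which activates the anaphase-promoting complex, was 1.65-fold higher, and its partner enzyme gene Ube2c and the checkpoint gene Bub3 were not called. Pttg1, securin, was 1.198-fold lower with TMM, with overlapping groups, and was not called without B2, without D3 or with library size only.

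Windows of mitotic genes held other motifs. The cell cycle homology region (CHR, searched as TTTGAA) is the site through which the MuvB complex acts, and it often lies near CCAAT boxes, the sites of NF-Y. CHR was in 31 of 44 windows (70.5%), against 12.2% for tested genes, and in 28 of these 31 a match began within 50 bases of the start on either side. CCAAT was in 35 windows (79.5%), against 37.7% for tested genes, and E2F in 6.82%. CCAAT was not particular to mitotic genes. It was in 73.1% of recombination, 65.4% of licensing and 71.4% of MHC class I windows, the last a list of mostly lower genes. The share was 38.7% for fork genes and 45.8% for the schlafen, PARP and IFI200 list. Top2a, the topoisomerase that untangles chromosomes, is shown with CHR and CCAAT in capitals on either strand (chr11:99024190-99024439, minus strand). Its CHR matches begin 179 and 23 bases before the start and CCAAT occurs 6 times:
Top2a: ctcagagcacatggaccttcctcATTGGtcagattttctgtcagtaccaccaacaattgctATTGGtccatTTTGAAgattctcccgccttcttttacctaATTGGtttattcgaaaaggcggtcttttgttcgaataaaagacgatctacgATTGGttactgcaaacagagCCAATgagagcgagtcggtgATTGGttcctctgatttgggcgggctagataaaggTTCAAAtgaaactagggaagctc

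Top2a itself stood at 205, 189 and 199 CPM in the untreated-labelled and 399.9, 382 and 397 CPM in the Pam3CSK4-labelled libraries (1.99-fold higher).

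**Figure D3:**
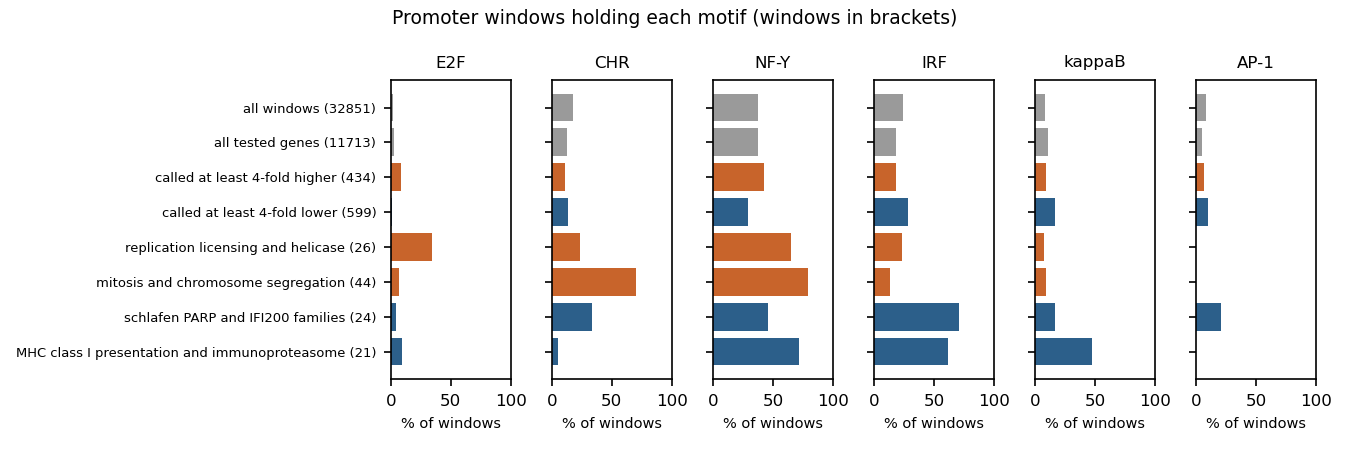
Percent of 300-base promoter windows that hold each motif (NF-Y marks the CCAAT box), for all windows and all tested genes (grey), for genes called at least 4-fold higher or lower, and for 4 gene lists (orange where most called members were higher, blue where most were lower; the number of windows is in brackets). E2F reaches 34.6% in the licensing list, CHR 70.5% in the mitosis list, IRF 70.8% in the schlafen, PARP and IFI200 list and kappaB 47.6% in the MHC class I list.

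The regulators of G1 moved both ways. Of 33 tested G1 cyclins, kinases, inhibitors and E2F genes 21 were called higher (13 at least 2-fold) and 8 lower (4 at least 2-fold). Cyclin D1 (Ccnd1, ENSMUSG00000070348; chromosome 7, 144929931 to 144939925, minus strand) stood at 21.2, 19.5 and 19.8 CPM against 542, 511 and 566 CPM, a log2 change of 4.75 ± 0.06 (SE) (adjusted p = 8.61e-30); the gene overlaps LTO1 on the other strand, which was not called. Cyclin D2 went the other way, with Ccnd2 2.13-fold lower, and Ccnd3 was not called. Ccne2 and Ccne1, the E cyclins that open S phase, were 9.799-fold and 4.35-fold higher. E2F genes ran from E2f2 (21.2-fold higher), E2f8, E2f7 and E2f1 (6.78-fold, 4.14-fold and 2.84-fold higher) to E2f5 (1.78-fold lower). Among the kinase inhibitors, Cdkn1a (p21) was 2.63-fold lower and Cdkn2b (p15) 4.39-fold lower, whereas Cdkn2c (p18) was 3.42-fold higher.

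Base and mismatch repair held the gene with the largest rise among all list members. Of 31 tested genes 21 were called higher (12 at least 2-fold) and 4 lower. Ung (ENSMUSG00000029591; chromosome 5, 114130386 to 114139323, plus strand), which removes uracil from DNA, stood at 0.253, 0.447 and 0.5302 CPM against 25.4, 21.9 and 25.1 CPM, 57.3-fold higher with a log2 change of 5.84 ± 0.18 (SE) (adjusted p = 2.39e-21). The mismatch repair genes Msh6 and Pms2 were 8.86-fold and 2.59-fold higher. Msh6 overlaps Fbxo11, which was 1.17-fold lower with TMM factors. Among nucleotide excision genes Ercc1 was 1.196-fold lower, Ercc5 1.43-fold higher and Ercc2, Ercc4 and Xpa were not called, and Polb, the short-patch polymerase, was 1.398-fold lower.

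Genes that supply bases and nucleotides were mostly higher as well. Of 20 tested genes of purine and pyrimidine synthesis 19 were called higher, 8 at least 2-fold, and 0 lower (median log2 change 0.72; Impdh1, not called, stood at 39.4 and 37.9 CPM). Adssl1, which makes adenylosuccinate, stood at 22.9, 24.9 and 21.2 against 102, 93.8 and 94.8 CPM, and Ppat, the committed step of purine synthesis, was 3.12-fold higher. Of 15 deoxynucleotide genes 11 were higher, among them Dut (7.998-fold), which keeps uracil out of DNA, the ribonucleotide reductase subunits Rrm2 and Rrm1 (6.02-fold and 3.96-fold) and the thymidine kinase gene Tk1 (5.01-fold). Both exceptions are tied to resting cells: Samhd1, which breaks down deoxynucleotides, went from 464, 524 and 463 to 203, 213 and 188 CPM (2.404-fold lower), while Rrm2b, the reductase subunit that serves outside S phase, was 1.66-fold lower. Of 20 one-carbon genes 12 were higher (5 at least 2-fold) and 7 lower. Shmt1 and Mthfd1, of the cytosolic branch, were 2.91-fold and 2.86-fold higher, and Mthfd2 and Mthfd1l, of the mitochondrial branch, 1.57-fold and 1.52-fold lower. Phgdh, which starts serine synthesis, was 1.73-fold lower.

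Writers and erasers of chromatin marks moved both ways. Of 50 tested histone methyltransferases, demethylases and DNA methylation genes 21 were called higher (11 at least 2-fold) and 22 lower (7 at least 2-fold), and with library size only 29 and 16. Uhrf1 and Dnmt1, which copy DNA methylation behind the fork, stood at 17.9, 16.6 and 17.4 against 173, 175 and 183 CPM and at 51.6, 50.2 and 49.9 against 359, 368 and 358 CPM, 10.3-fold and 7.15-fold higher. Ezh2, the Polycomb methyltransferase, was 3.53-fold higher, while Suz12 in the same complex was 1.404-fold higher and Eed was not called. Demethylase genes were among the lower ones: Kdm6b, which removes the Polycomb mark, went from 30.7, 31.8 and 32.9 to 4.64, 4.65 and 5.502 CPM (6.45-fold lower), Kdm5b was 4.58-fold lower, Kdm7a 3.38-fold, and Tet2, which oxidises methylcytosine, 6.19-fold.

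The direction of the translation machinery depended on the scaling. Of 79 tested cytosolic ribosomal protein genes 0 were called higher and 40 lower with TMM factors, none at least 2-fold (median log2 change -0.11; 21 to 49 lower when a library was left out, the 21 without B2) and, with library size only, 62 higher and 2 lower. Their share of all counts was 1.27% to 1.37% in the untreated-labelled and 1.52% to 1.53% in the Pam3CSK4-labelled libraries. Rpl24 and Rps9 had the lowest values of the list, 1.48-fold and 1.41-fold lower with TMM. Of 77 mitochondrial ribosomal protein genes 28 were higher and 17 lower (58 and 4 with library size only). Mrpl52 was the largest of these changes, from 62.5, 70.5 and 67.9 to 15.4, 16.8 and 15.7 CPM (4.18-fold lower); it lies 1856 bases from Mmp14 on the same strand, which was 119-fold lower. Of 66 ribosome biogenesis genes 27 were higher and 11 lower (53 and 3 with library size only), Dkc1, the pseudouridine synthase of ribosomal RNA, by 2.06-fold higher and Rrs1 by 1.61-fold lower. Of 22 aminoacyl tRNA synthetase genes 11 were higher (7 without B2) and 7 lower, with none at least 2-fold, against 19 and 0 with library size only and 6 and 7 with DESeq2.

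Initiation and elongation factors held some larger changes. Of 46 tested genes 7 were higher and 29 lower with TMM, and 24 and 12 with library size only. Eef2k, the kinase that slows elongation, stood at 3.42, 3.13 and 2.97 against 15.5, 15.8 and 15.4 CPM (4.89-fold higher). Eif4ebp1, which holds back cap-dependent initiation, was 2.53-fold lower, whereas its relative Eif4ebp2 was 1.78-fold higher. Eif4g2 was 2.49-fold lower and Eif6, an anti-association factor of the large subunit, 2.19-fold lower.

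Proteasome genes were lower as a group, mostly by less than 2-fold. Of 38 tested genes of the constitutive proteasome and its assembly 33 were called lower and 2 higher (median log2 change -0.50), and 25 and 7 with library size only. With TMM factors 2 were at least 2-fold lower, a share below the 10.8% of all tested genes. Both genes called higher, Psmg2 (1.74-fold) and Psmg1 (1.21-fold, not called without D2), are assembly chaperones. Psma6 (ENSMUSG00000021024; chromosome 12, 55384222 to 55418454, plus strand), an alpha ring subunit, stood far from the other subunits: it went from 695, 722 and 676 to 156, 147 and 148 CPM, a log2 change of -2.22 ± 0.04 (SE) (adjusted p = 2.88e-27). The catalytic subunits Psmb6 and Psmb5 were 2.08-fold and 1.69-fold lower. Genes that the stem Ube names, mostly ubiquitin-conjugating enzymes and ligases, were 26 lower and 4 higher of 36 tested with TMM, and 13 lower and 12 higher with library size only.

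The machinery that loads peptides on MHC class I, which displays pieces of cell proteins to CD8 T cells, was lower: 20 of 22 tested genes, 11 at least 2-fold, against 1 higher (median log2 change -0.97). Psme2, a subunit of the PA28 activator, went from 307, 327 and 298 to 58.5, 66.01 and 62.2 CPM (4.99-fold lower). Tap1 and Tap2, the peptide transporter, were 2.99-fold and 2.95-fold lower, Tapbp, the loading factor tapasin, 2.24-fold, and Nlrc5, the transcriptional activator of class I genes, 3.67-fold. The immunoproteasome subunits Psmb10, Psmb8 and Psmb9 were 2.799-fold, 1.804-fold and 1.53-fold lower. B2m, the light chain, was 1.35-fold lower, while Pdia3, a chaperone of the endoplasmic reticulum, was 1.099-fold higher.

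The heavy chain genes fell by different amounts. H2-D1 was 1.198-fold, H2-K1 1.67-fold, H2-Q4 2.93-fold, H2-Q6 4.11-fold and H2-Q7 5.14-fold lower; reads of these close paralogs can be divided between copies, so the values are uncertain. Their promoters share a stretch with a κB site followed by an interferon regulatory factor (IRF) site, shown in capitals, because it lets the reader see how alike the windows are:
H2-K1: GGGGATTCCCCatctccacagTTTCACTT
H2-D1: GGGGATTCCCCatctcctcagTTTCACTT
H2-Q4: GGGGATTTCCCatctccccagTTTCACTT
H2-Q6: GGGGATTCCCCatctccccagTTTCACTT
H2-Q7: GGGGATTCCCatctccccagTTTCACTT

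On GRCm38.p6 these lie at chr17:34000430-34000458 (minus strand), chr17:35262923-35262951, chr17:35379443-35379471, chr17:35424677-35424705 and chr17:35439022-35439049 (plus strand), in this order. The IRF site was searched as AANNGAAA on both strands and the κB site by its usual consensus; the 2 sites do not overlap here, but in H2-K1, H2-D1, H2-Q4 and H2-Q6 the κB capitals are a pair of matches that overlap each other. The stretch of H2-Q7 is 28 bases long and the others are 29. Over the 21 windows of the class I list, κB was found in 47.6% and IRF in 61.9%, against 10.3% and 18.4% for the windows of tested genes. Over genes called at least 4-fold lower the shares were 16.5% and 28.4%, and over those called at least 4-fold higher 8.99% and 18.7%. AP-1 (TGANTCA) was in 9.68% of windows of the 4-fold lower, 6.22% of the 4-fold higher and 5.14% of all tested genes, and the cyclic AMP response element (TGACGTCA) in 2.17%, 2.07% and 3.12%.

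The interferon-inducible schlafen, PARP and IFI200 families lay at the foot of all lists. Of 25 tested schlafen, PARP and IFI200 genes 21 were called lower, 16 at least 2-fold, and 2 higher (median log2 change -1.84). Slfn2 (ENSMUSG00000072620; chromosome 11, 83065112 to 83070678, plus strand) went from 1223, 1271 and 1191 to 191, 190.2 and 176 CPM, a log2 change of -2.73 ± 0.04 (SE) (adjusted p = 1.39e-29). Slfn4, Slfn1, Slfn5 and Slfn8 were 7.73-fold, 5.82-fold, 4.77-fold and 4.62-fold lower, yet Slfn9 in the same gene cluster was 3.34-fold higher, at 41.1, 46.5 and 41.99 against 155, 138 and 146 CPM, and Slfn3 was not called. Parp14, Parp9, Parp12 and Parp10 were 6.35-fold, 3.57-fold, 3.52-fold and 3.35-fold lower. Of the DNA sensors, Ifi205 was 84.2-fold lower and Aim2 1.23-fold. These families hold close copies, so single values are uncertain. The IRF site was in 17 of 24 windows (70.8%). Slfn9, which was higher, and Slfn3, which was not called, also have a window with this site. The window of Slfn2 (chr11:83064862-83065111, plus strand) holds it in 2 copies, in capitals, that begin 81 and 59 bases before the start:
Slfn2: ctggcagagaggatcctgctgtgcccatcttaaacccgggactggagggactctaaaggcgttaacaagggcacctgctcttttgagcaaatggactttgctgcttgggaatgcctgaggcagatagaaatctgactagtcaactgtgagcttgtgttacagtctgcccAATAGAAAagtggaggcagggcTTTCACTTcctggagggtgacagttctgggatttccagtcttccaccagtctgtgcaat

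Of 40 tested TRIM genes, ubiquitin ligases of which several restrict viruses, 18 were lower (9 at least 2-fold) and 13 higher (3 at least 2-fold), and 15 and 20 with library size only. The Trim30 genes were lower, Trim30a by 3.36-fold, Trim30d by 4.16-fold and Trim30c by 5.85-fold. The lowest was Trim13, at 45.9, 49.1 and 45.4 against 7.36, 7.35 and 7.11 CPM, while Trim65 was 2.695-fold higher. Of 19 interferon regulatory factors, STATs and JAKs 13 were lower and 2 higher. Jak2 went from 472, 465 and 464 to 48.97, 51.03 and 49.7 CPM (9.35-fold lower), Irf1 was 3.73-fold lower, and Stat2 and Stat3 2.78-fold and 2.62-fold. The higher ones were Stat6, which serves interleukin-4 (1.18-fold), and Stat4 (1.97-fold), and Irf8 and Irf5 were not called.

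Chaperones changed little beyond a few. Of 30 tested heat shock and cytosolic chaperone genes 20 were lower and 6 higher with TMM, and 11 and 13 with library size only. The 2 inducible HSP70 genes Hspa1a and Hspa1b were 8.53-fold and 6.67-fold lower at mean levels of 2.01 and 4.47 CPM in the untreated-labelled libraries; they are near-identical, so reads may be divided between them. Hspa8, the constitutive form, was 1.56-fold lower. Ahsa1, which stimulates the HSP90 ATPase, stood at 121, 121 and 113 against 353, 373 and 347 CPM (3.01-fold higher).

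**Figure D4:**
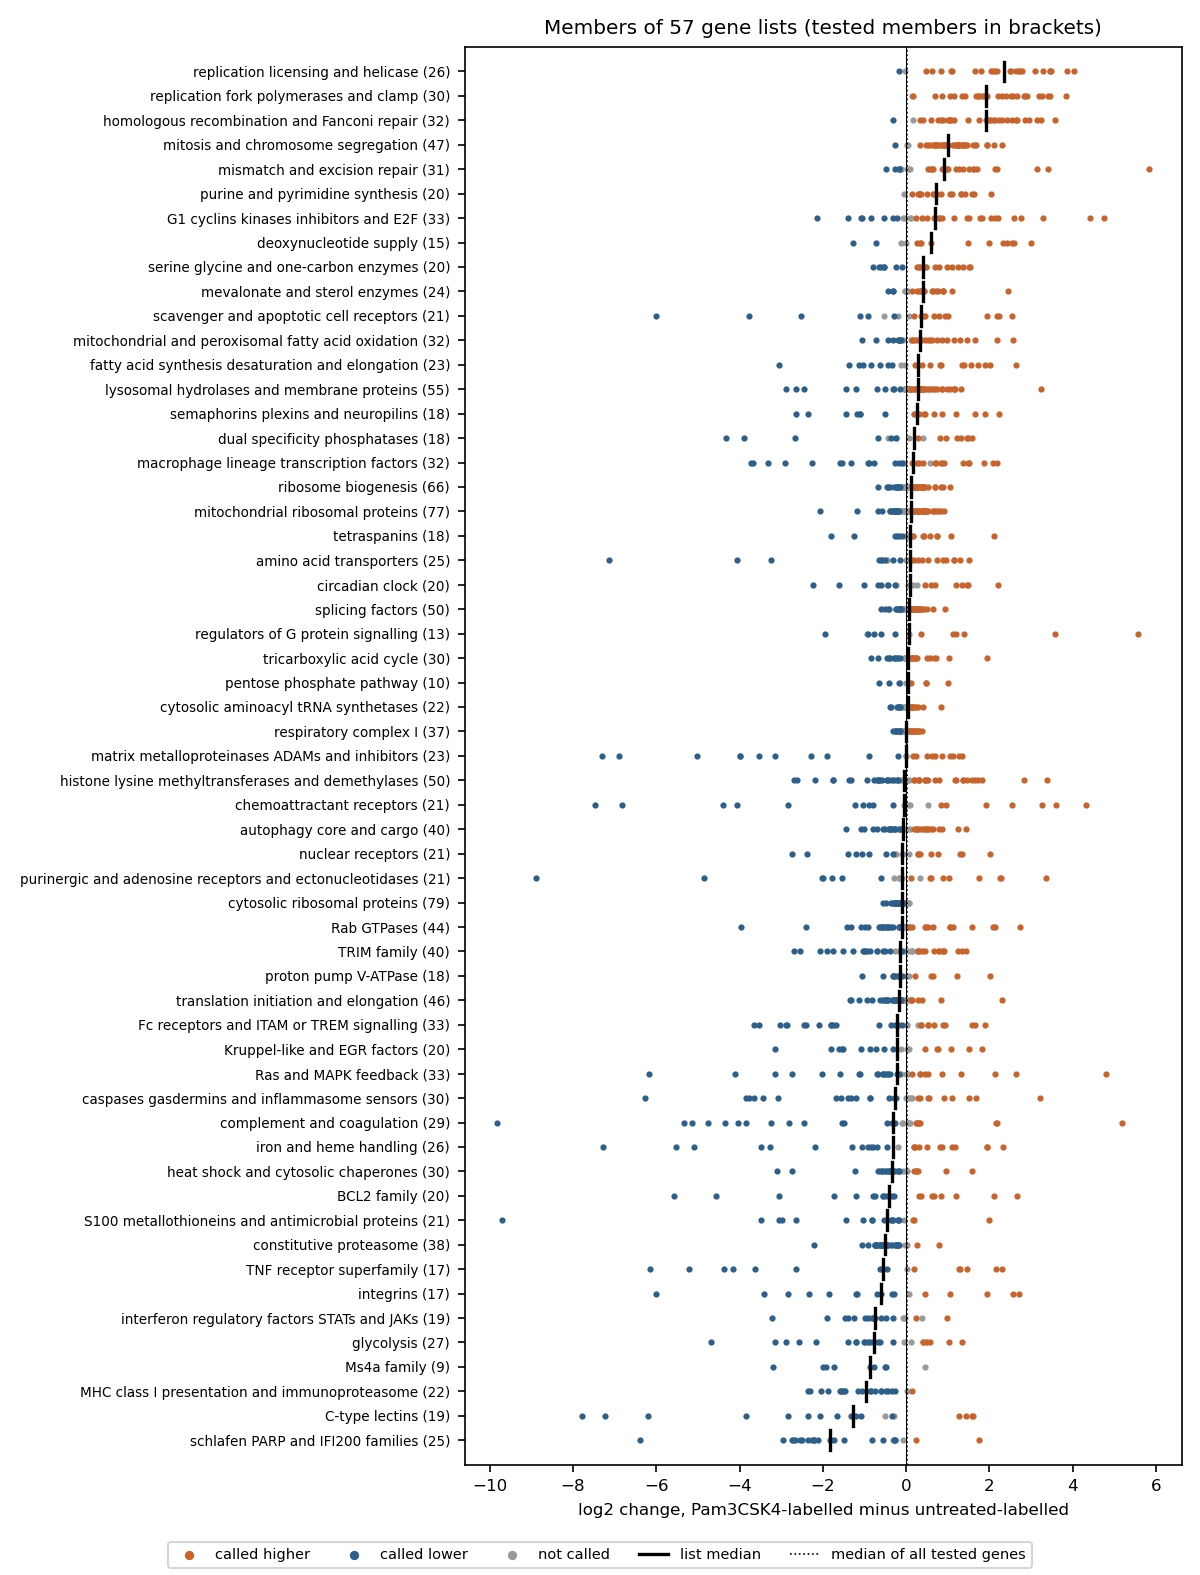
Log2 change of each tested member of 57 gene lists, Pam3CSK4-labelled minus untreated-labelled with TMM factors, coloured by call, with the median of each list as a bar and that of all tested genes as a dotted line. Lists are sorted by median, from 2.34 for replication licensing to -1.84 for the schlafen, PARP and IFI200 families; with library size only, lists whose median lies just below the dotted line, such as cytosolic ribosomal proteins at -0.11, have a median above 0 (0.21 for these).

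Of 27 tested glycolysis genes, the transporters and enzymes that turn glucose into lactate, 18 were called lower, 9 at least 2-fold, and 6 higher (median log2 change -0.78). Among glucose transporters Slc2a1 was 5.97-fold lower and Slc2a6 went from 157, 166 and 151 to 5.28, 6.37 and 6.57 CPM (25.9-fold lower), while Slc2a3 was 2.54-fold higher at lower levels, 6.27, 7.11 and 6.26 against 16.2, 16.4 and 18.7 CPM. The isozymes of a step parted: Hk2 and Hk1 were 2.62-fold and 1.72-fold lower but Hk3 1.32-fold higher, Pfkl and Pfkp 4.51-fold and 1.87-fold lower but Pfkm 1.48-fold higher, Pfkfb3 8.87-fold lower but Pfkfb2 2.05-fold higher, and Ldha 2.03-fold lower but Ldhb 1.32-fold higher. The lactate exporter gene Slc16a3 went from 423, 442 and 453 to 60.7, 58.03 and 58.2 CPM, whereas Slc16a1 was 1.42-fold higher. Of 10 pentose phosphate genes 4 were higher and 3 lower, Pgd by 1.58-fold, G6pdx by 1.33-fold and Tkt by 1.13-fold lower with TMM (Tkt was higher with library size only).

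In mitochondria, 14 of 30 tested genes around the tricarboxylic acid cycle were higher and 10 lower, and with library size only 22 and 2. The NADP-dependent dehydrogenase genes Idh2 and Idh1 were 2.04-fold and 1.64-fold higher. Of the kinases that shut pyruvate dehydrogenase, Pdk2 was 3.81-fold higher and Pdk1 1.798-fold lower. Complex I genes moved by at most 1.31-fold: 12 of 37 were higher and 8 lower with TMM (3 to 11 lower when a library was left out: 3 without B2 and 5 without A2, D1 or D2), and 30 and 0 with library size only.

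In 3 lists of lipid genes more members were called higher than lower. Of 32 tested genes of fatty acid oxidation 21 were called higher (6 at least 2-fold) and 8 lower (median log2 change 0.34). The peroxisomal transporter gene Abcd2 stood at 3.36, 3.75 and 2.86 against 19.1, 21.2 and 21.5 CPM (5.902-fold higher), Acox3, a peroxisomal oxidase gene, was 3.16-fold higher, and Cpt1a, the gate for fatty acids into mitochondria, 2.46-fold. Of 23 genes of fatty acid synthesis and elongation 13 were higher (7 at least 2-fold) and 8 lower (4 at least 2-fold). The list as a whole took fewer of the raw counts, 0.218% to 0.226% in the untreated-labelled and 0.183% to 0.186% in the Pam3CSK4-labelled libraries. Elovl6 was at 2.47, 2.36 and 2.86 against 17.6, 15.2 and 14.1 CPM (6.27-fold higher), and Fads1, Scd1 and Fasn were 4.04-fold, 3.68-fold and 2.92-fold higher. The acyl-CoA synthetases split: Acsl1 went from 488, 468 and 484 to 57.8, 56.7 and 59.1 CPM (8.29-fold lower), Acsl5 and Acsl4 were 2.59-fold and 2.19-fold lower, and Acsl3 was 3.297-fold higher. Of 24 sterol genes 18 were higher, 2 of them at least 2-fold (Dhcr7 and Acat2), and 3 lower. The 2-fold share of the sterol genes was below the 13.2% of all tested genes.

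Amino acid and iron transport held some of the largest changes outside the inflammatory genes. Slc7a11 (ENSMUSG00000027737; chromosome 3, 49892526 to 50443614, minus strand), which imports cystine for glutathione, went from 955, 933 and 919 to 6.96, 7.29 and 5.43 CPM, a log2 change of -7.14 ± 0.07 (SE) (adjusted p = 3.83e-33). Slc7a2, an arginine transporter, was 9.48-fold lower, and Slc3a2, the shared heavy chain, 1.5004-fold lower. Of 25 tested genes of amino acid transporter families 9 were lower and 11 higher. The higher ones included Slc43a2 and its family member Slc43a3 (2.47-fold and 2.86-fold), and the glutamine transporters Slc38a2 and Slc1a5 (2.22-fold and 2.21-fold).

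Of 26 tested iron and heme genes 12 were higher (5 at least 2-fold) and 13 lower (8 at least 2-fold). Slc40a1, ferroportin, the exporter of iron, was 3.82-fold higher, Steap3, an endosomal ferrireductase, stood at 16.2, 14.5 and 15.7 against 80.4, 73.2 and 77.7 CPM (5.04-fold higher), Flvcr1, a heme exporter, was 3.85-fold higher and Tfrc, the transferrin receptor, 1.83-fold. Lower were Slc11a2, which brings iron into the cytosol (4.59-fold), Lcn2, which binds bacterial siderophores (11.2-fold), Fth1, ferritin heavy chain (20504, 21169 and 20886 against 11664, 11624 and 11588 CPM), and Hmox1, heme oxygenase (2.48-fold). Ferritin light chain, Ftl1, was 1.16-fold higher. Alas1, the entry to heme synthesis, went from 1160.4, 1156 and 1105 to 121, 114 and 119 CPM (9.68-fold lower), while Alad and Fech further down the chain were 2.16-fold and 1.41-fold higher. Cp, which oxidises exported iron, went from 319, 344 and 349 to 2.08, 2.12 and 2.29 CPM; it overlaps Hps3.

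Lysosomal genes took more of the library: 8.07% to 8.17% of counts in the Pam3CSK4-labelled against 6.01% to 6.04% in the untreated-labelled libraries. These are shares of raw counts without TMM factors, so the size of the gain depends on the scaling. Of 55 tested hydrolase and membrane protein genes 35 were higher (6 at least 2-fold) and 10 lower (5 at least 2-fold) with TMM, with a median log2 change of 0.27. With library size only 46 were higher and 7 lower, with a median of 0.59. Sgsh, the heparan sulfate sulfamidase, stood at 7.85, 6.56 and 8.27 against 67.8, 70.3 and 64.9 CPM (9.37-fold higher), and Lipa, lysosomal acid lipase, at 928, 904 and 867 against 2003, 2024 and 1971 CPM (2.22-fold higher). By gain in CPM, Ctsb, a cathepsin, came high, from 14408, 14575 and 14349.6 to 16939, 17246 and 16787 CPM, although that is a change of 1.18-fold. Ctsd and Ctsl, further cathepsins, were 1.37-fold and 1.67-fold higher, and the membrane proteins Lamp1 and Lamp2 were not called. Lower were Acp5, tartrate-resistant acid phosphatase (140.0, 145 and 142 against 21.2, 18.5 and 17.8 CPM), Ctsc, which matures granule proteases (5.503-fold), Acp2 (2.72-fold) and Ctsz (1.63-fold).

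The proton pump, autophagy and Rab genes had no common direction. Of 18 V-ATPase genes 5 were higher and 11 lower with TMM, and 11 and 2 with library size only; Atp6v0d2 was 4.01-fold higher and Atp6v1e1 2.09-fold lower. Of 40 autophagy genes 16 were higher and 17 lower, and 24 and 7 with library size only. The cargo receptor gene Sqstm1 (p62) went from 1435, 1436 and 1354 to 512, 517 and 532 CPM (2.71-fold lower), although it overlaps Mrnip, which was 3.53-fold higher, and the lysosomal tether gene Tecpr1 was 2.69-fold higher. Of 44 Rab and Rab effector genes 13 were higher and 21 lower, and 24 and 15 with library size only. Rab7b was 4.41-fold higher, Rab20, known from phagosomes, 5.33-fold lower, and the effectors Rab3il1 and Rab11fip1 6.704-fold higher and 15.6-fold lower.

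On the cell surface, C-type lectins were mostly lower: 13 of 19 tested genes, 12 at least 2-fold, with 4 higher (median log2 change -1.27). Clec4e (ENSMUSG00000030142; chromosome 6, 123281789 to 123289870, minus strand), Mincle, a receptor for fungal and mycobacterial glycolipids, went from 2785, 2726 and 2722 to 18.9, 16.9 and 19.1 CPM, a log2 change of -7.24 ± 0.05 (SE) (adjusted p = 3.20e-35). Its neighbours in function Clec4d and Clec4n were 2.31-fold and 4.18-fold lower, Clec5a 5.17-fold, the scavenger lectin gene Olr1 73.9-fold, and the activation marker gene Cd69 219-fold. The mannose receptor gene Mrc1 was 2.41-fold and the galactose-type lectin gene Clec10a 3.05-fold higher, the latter at 1.58, 2.83 and 2.65 against 7.68, 7.12 and 7.79 CPM.

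Receptors that clear debris moved both ways. Of 21 scavenger and apoptotic cell receptor genes 12 were higher and 6 lower, with 4 at least 2-fold in each direction. Havcr2 (TIM-3) stood at 13.9, 13.7 and 13.8 against 77.2, 80.8 and 83.1 CPM (5.82-fold higher), Gas6, the bridge from dying cells to the TAM receptors, was 4.56-fold higher, the TAM receptor gene Mertk 1.99-fold and Stab1 1.89-fold higher. The other TAM receptor gene, Axl, was 2.14-fold lower. Marco, which binds bacteria, went from 859, 922 and 910.4 to 13.2, 14.5 and 13.7 CPM (64.8-fold lower), Msr1 was 1.88-fold and the phosphatidylserine receptor gene Timd4 13.6-fold lower. Of 17 integrin genes 11 were lower (7 at least 2-fold) and 5 higher. Itga5, a chain of the fibronectin receptor, went from 1076, 1086 and 1078 to 153, 146 and 158 CPM, Itgal, the LFA-1 chain, was 10.7-fold and Itgb8 63.9-fold lower, while Itga6, a laminin receptor chain, was 5.92-fold and Itgb5 3.85-fold higher.

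Of 33 tested genes of Fc receptors and their ITAM pathway 20 were lower (12 at least 2-fold) and 10 higher, and 13 and 17 with library size only. The kinase genes Syk, Lyn and Fgr were 5.46-fold, 3.396-fold and 7.31-fold lower, and the phosphatase gene Ptpn6 3.22-fold lower. Fcgr2b, the inhibitory Fc receptor, went from 1323, 1357 and 1341 to 161, 162 and 172 CPM (8.12-fold lower). The activating receptor genes Fcgr1, Fcgr3 and Fcgr4 were 1.16-fold, 1.15-fold and 1.2000-fold lower with TMM, and with library size only Fcgr3 was higher and the others were not called. Cd300a, Cd300lf and Cd300lb, receptors for membrane lipids, were 3.702-fold, 3.13-fold and 3.01-fold higher, Trem2 was 1.86-fold higher and its adaptor gene Tyrobp was not called.

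Chemoattractant receptors moved both ways. Of 21 tested genes 7 were higher (5 at least 2-fold) and 10 lower (7 at least 2-fold), and 10 and 9 with library size only. The formyl peptide receptor genes Fpr1 and Fpr2 were 176-fold and 114-fold lower, Fpr1 at 509, 509 and 485 against 2.08, 3.04 and 3.29 CPM. Cxcr4, which keeps cells in the marrow, stood at 2.03, 1.86 and 2.23 against 37.1, 45.9 and 34.7 CPM (20.1-fold higher), the oxysterol receptor gene Gpr183 was 9.62-fold and the sphingosine phosphate receptor gene S1pr1 3.78-fold higher. Ccr1 was 2.04-fold lower, Ccr2 was 1.95-fold higher and Cx3cr1 was not called.

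Purine receptors and enzymes also moved both ways: 9 of 21 were higher and 7 lower. The ADP receptor genes P2ry1 and P2ry12 were 10.3-fold and 4.87-fold higher, and the ectonucleotidase genes Entpd1 and Enpp1 3.35-fold and 4.79-fold. The adenosine receptor gene Adora2b went from 136, 127 and 109 to 4.48, 4.02 and 4.59 CPM (28.8-fold lower), and Adora2a from 62.7, 59.5 and 54.7 to 0.08001, 0.115 and 0.153 CPM, the latter on 5 counts in all 3 Pam3CSK4-labelled libraries.

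Among guidance receptors Nrp1 was at 98.9, 98.6 and 95.97 against 449, 468 and 455 CPM (4.67-fold higher) and Nrp2 was 2.15-fold lower, and the semaphorin genes Sema4a and Sema4c were 6.29-fold and 5.099-fold lower while Sema4d was 1.25-fold higher. All 8 called members of the 9 tested Ms4a genes were lower, Ms4a4c from 87.2, 85.4 and 68.7 to 7.76, 10.1 and 8.41 CPM, and Ms4a3 was not called. Of 18 tetraspanins 8 were higher and 6 lower, with Tspan4 2.09-fold higher and Cd82 3.48-fold lower. Of 17 TNF receptor superfamily genes 10 were lower (6 at least 2-fold) and 6 higher (5 at least 2-fold). Tnfrsf1b, the TNF receptor of leukocytes, went from 2522, 2561 and 2563 to 119, 127 and 122 CPM (20.7-fold lower), Tnfrsf1a was 1.55-fold, Fas 17.95-fold and Tnfrsf8 70.5-fold lower. The decoy receptor genes Tnfrsf22 and Tnfrsf23 and their neighbour Tnfrsf26 were 2.75-fold, 2.46-fold and 4.95-fold higher.

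**Figure D5:**
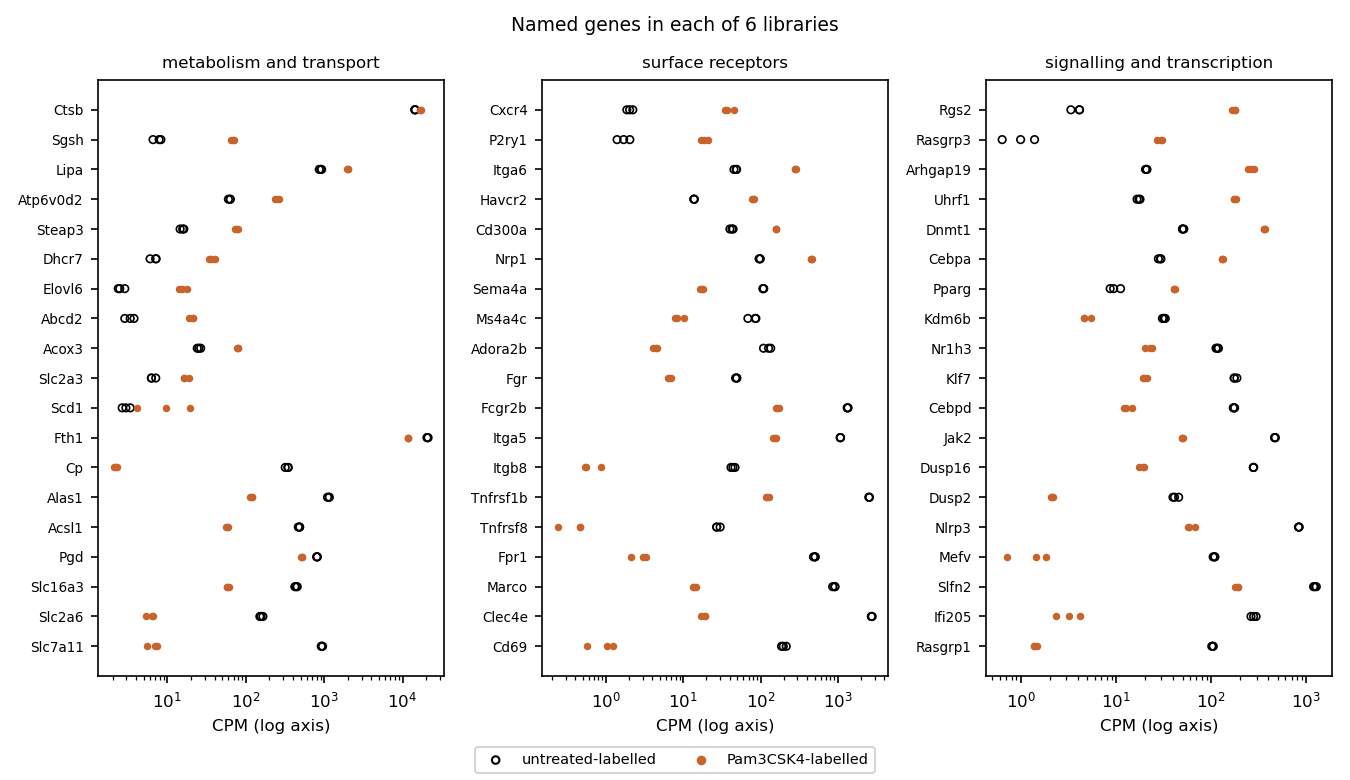
CPM on a log axis of 57 genes named in the text in the 3 untreated-labelled (open) and the 3 Pam3CSK4-labelled (filled) libraries, in 3 panels of metabolism and transport, surface receptors, and signalling and transcription. The groups do not overlap for any gene shown; Cxcr4 and Rgs2 rise by 20.1-fold and 47.1-fold, and Slc7a11, Clec4e and Rasgrp1 fall by 141-fold, 151-fold and 72.5-fold.

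Signalling regulators exchanged family members. Of 18 dual specificity phosphatases, which switch off MAP kinases, 8 were higher (5 at least 2-fold) and 6 lower (3 at least 2-fold). Dusp6 and Dusp7, which act on ERK in the cytosol, were 2.74-fold and 2.49-fold higher, and Dusp1, Dusp2 and Dusp16 6.41-fold, 20.1-fold and 14.9-fold lower, Dusp16 from 279.6, 278 and 277 to 19.2, 17.3 and 19.9 CPM. Of 13 regulators of G protein signalling 6 were higher and 5 lower. Rgs2 (ENSMUSG00000026360; chromosome 1, 143999338 to 144004161, minus strand) stood at 4.12, 3.35 and 4.14 against 178, 177 and 165 CPM, a log2 change of 5.56 ± 0.08 (SE) (adjusted p = 3.70e-29), and Rgs1 was 11.9-fold higher. Of 33 Ras and MAP kinase genes 18 were lower (8 at least 2-fold) and 9 higher (4 at least 2-fold), and 15 and 16 with library size only. The Ras activators Rasgrp3 and Rasgrp1 went in opposite directions, Rasgrp3 from 1.39, 0.994 and 0.636 to 30.1, 30.02 and 26.9 CPM and Rasgrp1 from 101, 104 and 105 to 1.36, 1.49 and 1.38 CPM. The sprouty genes did so too, Spry2 2.5004-fold higher and Spry1 17.3-fold lower, and in the p38 pathway the activator gene Map2k6 was 4.38-fold higher and Mapk14, p38 alpha itself, 1.61-fold lower. Mapkapk2, the kinase that p38 turns on, was 6.74-fold lower and Map3k8 8.85-fold.

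Among genes of GTPase-activating proteins that act on the cytoskeleton, Arhgap19 went from 20.4, 20.95 and 21.1 to 260.2, 278 and 243 CPM (12.5-fold higher), Arhgap18 rose by 7.904-fold and Arhgap24 by 7.49-fold. Over the 27 tested genes with the stem Arhgap 18 were higher and 5 lower, although Arhgap31 was 3.95-fold lower. The haematopoietic GTPase genes Rac2 and Rhog were 3.47-fold and 2.3003-fold lower, Rhob was 3.24-fold and Rhoh 2.82-fold higher.

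Lineage transcription factors moved both ways. Of 32 tested genes 15 were higher and 14 lower. Cebpa, the factor of myeloid commitment, stood at 29.6, 27.9 and 29.3 against 132, 129.7 and 129 CPM (4.54-fold higher), while Cebpb and Cebpd, of the acute response, were 9.92-fold and 13.3-fold lower, Cebpd from 174, 176 and 171 to 12.8, 11.996 and 14.8 CPM. Mef2c was 3.65-fold higher, Spi1, which encodes PU.1, 2.49-fold lower, and Mitf and Tfec, related to the lysosome regulator Tfeb, were 2.997-fold and 7.53-fold lower against Tfeb 1.83-fold higher. Of 20 Kruppel-like and EGR genes 6 were higher and 10 lower, and 9 and 8 with library size only. Klf4 and Klf2 were 3.51-fold and 2.12-fold higher, Klf6 and Klf7 3.05-fold and 8.83-fold lower.

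Of 21 nuclear receptor genes 8 were higher and 8 lower. Pparg stood at 8.68, 11.2 and 9.44 against 40.6, 41.2 and 40.3 CPM (4.02-fold higher) and its partner Rxra was 2.43-fold higher, while Ppard was 2.09-fold and the glucocorticoid receptor gene Nr3c1 2.31-fold lower. Nr1h3 (LXR alpha) went from 112, 119 and 116 to 20.002, 22.7 and 23.995 CPM and lies head to head with Acp2, also lower. Of 20 clock genes 8 were higher and 7 lower. Dbp and Tef, which activate D-box genes, were 4.59-fold and 2.28-fold higher, and Nfil3, which represses them, 4.73-fold lower; Arntl, Per1 and Per2 were not called.

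Of 30 caspase, gasdermin and inflammasome genes 16 were lower (11 at least 2-fold) and 9 higher (4 at least 2-fold), and 13 and 14 with library size only. Nlrp3 went from 837, 837 and 826 to 58.1, 57.1 and 67.3 CPM (13.7-fold lower), Mefv (pyrin) was 76.8-fold, Nlrc4 3.22-fold, Casp4 12.6-fold, Casp1 2.98-fold and the pore gene Gsdmd 2.61-fold lower. The sensor gene Nlrp1b went the other way, at 2.41, 2.01 and 1.697 against 16.9, 20.5 and 19.9 CPM (9.26-fold higher), and the pore gene Gsdme was 3.18-fold higher. Of the inhibitors of death, Birc3 and Cflar were 14.3-fold and 8.39-fold lower and Xiap was not called. In the BCL2 family 8 of 20 were higher and 12 lower. Bcl2 itself stood at 6.904, 6.81 and 7.105 against 29.5, 26.3 and 34.1 CPM (4.32-fold higher) and Bcl2l1 was 1.53-fold higher, whereas the other protective members Mcl1 and the Bcl2a1 genes were lower, Mcl1 by 1.68-fold, Bcl2a1b by 3.32-fold and Bcl2a1d by 23.6-fold (copies of 1 gene, so divided reads are possible).

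Of 23 matrix protease genes and inhibitors 10 were higher (4 at least 2-fold) and 11 lower (9 at least 2-fold), and 12 and 9 with library size only. Mmp14, the membrane-bound protease that activates Mmp2, went from 1086, 1112 and 1112 to 10.2, 8.49 and 9.25 CPM (119-fold lower), Mmp13 and Mmp9 were 15.9-fold and 15.97-fold lower, and Mmp12, the macrophage elastase, was not called at 1398 and 1399 CPM. Adam17, which sheds TNF, was 3.76-fold lower and Adam10 1.61-fold higher. Adamts4, an aggrecanase, stood at 19.8, 19.4 and 19.6 against 0.24003, 0.115 and 0 CPM, the latter on 5 counts.

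Of 29 complement and coagulation genes 16 were lower (12 at least 2-fold) and 8 higher (3 at least 2-fold). Plau, urokinase, stood at 30.2, 28.98 and 24.9 against 1090.2, 921 and 1082 CPM (36.1-fold higher), while its receptor gene Plaur was 5.47-fold and its inhibitor gene Serpinb2 902-fold lower. C3 went from 731, 749 and 751 to 30.1, 38.1 and 40.4 CPM (20.4-fold lower) and Cfb was 40.3-fold lower, while the C1q genes stayed near their level, with C1qc 1.19-fold higher and C1qa and C1qb not called. Tissue factor, F3, was 14.5-fold and the protein C receptor gene Procr 35.1-fold lower, and thrombomodulin, Thbd, 4.45-fold higher. Of 21 S100, metallothionein and antimicrobial genes 17 were lower and 3 higher. Saa3 went from 6002, 6656 and 6045 to 9.12, 4.94 and 9.32 CPM (828-fold lower), Mt2 was 7.95-fold but Mt1 1.45-fold lower, and S100a4 and S100a6 were 1.14-fold and 1.11-fold higher.

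A pair of large symbol families that were not chosen by function serve as a comparison. Of 311 tested genes with the stem Zfp, mostly zinc finger proteins, 142 were higher (43 at least 2-fold) and 68 lower (15 at least 2-fold), a median log2 change of 0.23. Of 206 tested Slc transporter genes 80 were higher (31 at least 2-fold) and 70 lower (27 at least 2-fold), a median of 0.01. The balance of the Slc genes holds with TMM; with library size only 118 were higher and 45 lower (median 0.33), and of the Zfp genes 214 and 27 (median 0.54). Cytoskeletal and nuclear pore families lay above these, with 20 of 31 Kif, 24 of 34 Cep and 15 of 19 Nup genes higher. The Ifi stem, 14 of 16 lower, and the Il stem of interleukins and their receptors, 28 of 40 lower, lay below. Of 50 splicing factor genes 22 were higher and 14 lower with none at least 2-fold, and 43 and 4 with library size only.

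Some genes that changed by at least 4-fold lay next to each other on a chromosome. Whether they did so more often than in a random order of genes was not tested. Among tested genes in order of position, runs of at least 3 neighbours that all changed at least 4-fold the same way were 24 for lower and 2 for higher genes. The longest held Ccl3, Ccl4, Wfdc17, Wfdc18 and Wfdc21 over 105 kb of chromosome 11. Runs of 4 lower genes were Ifi214 to Ifi208 on chromosome 1, Slfn8 to Slfn4 on chromosome 11, the hyaluronan synthase gene Has1 with Spaca6, Fpr1 and Fpr2 on chromosome 17, Gbp5 to Gbp2 on chromosome 3, and Zfp658, Zfp719, Zfp819 and Siglece on chromosome 7. Both runs of higher genes had 3 members, Arhgap19, Frat1 and Frat2 on chromosome 19 and 4930579G24Rik, Tmem144 and Fam198b on chromosome 3. Several runs of lower genes hold copies of 1 family (Ifi, Slfn, Gbp), between which reads can be divided.

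Genes that start head to head, on opposite strands within 500 bases, gave 498 pairs with both genes tested. In 110 pairs at least 1 gene was called at least 2-fold higher, and in 17 of these (15.5%) both were. Of all tested genes 13.2% were called so, but that is a share of single genes. It is not a like measure, because the 15.5% is a share of pairs with at least 1 such gene. In 35 pairs at least 1 was called at least 2-fold lower, and in 8 of these (22.9%) both were. Of all tested genes 10.8% were called so, again a share of single genes that cannot be set against the 22.9% of pairs. Examples are Sgsh and the sulfate transporter gene Slc26a11, 21 bases apart and 9.37-fold and 6.31-fold higher, Mcm4 with the DNA repair kinase gene Prkdc (9.75-fold and 3.20-fold higher), Dtl with Ints7 (22.1-fold and 3.13-fold higher) and Atm with Npat (5.28-fold and 2.80-fold higher). In 2 pairs the genes went opposite ways by at least 2-fold, Best1 lower with Rab3il1 higher, and Kctd9 lower with Cdca2 higher. Whether paired genes changed together more often than unpaired ones was not tested. Where the strand setting of the counting is not known, reads that cross such starts could be counted for either gene.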

How the data were processed

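Gene counts per library, deposited by the authors, were used as whole-number counts; the submitters' processing notes name HISAT2 2.1.0, featureCounts and Subread, and a human build (hg38) although the gene identifiers are those of mouse, so the annotation and strand setting are not given in the sources used here. RNA was extracted with TRIzol and made into NEBNext Ultra libraries, per the labels' protocols. Another 15 columns of the deposited table carry no label of these samples and were not used.

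From these counts, genes kept by filterByExpr were fitted with edgeR 4.0.16 (R 4.3.3, limma 3.58.1) by the quasi-likelihood test with TMM factors, all 9 libraries sharing 1 estimate of spread; genes were called at a Benjamini-Hochberg adjusted p under 0.05 over all tested genes, and SE is the log2 change divided by the root of F. Libraries held 10203040 to 43980309 counts, so that 3 counts correspond to 0.0746 to 0.318 CPM; bounds from counts cover counting error only. Lengths for RPKM, positions and overlaps came from a GENCODE M21 annotation on GRCm38, and promoter sequences from RefSeq (GRCm38.p6), matched by symbol for 9137 of 11469 tested genes. The scripts were tested on simulated data.

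The gene lists (58, with 1709 tested genes) and 6 marker lists were chosen with earlier results of these data known. By rule, 160 genes were taken: per list the called member with the largest rise, that with the largest fall and that with the smallest p, the 10 largest gains and losses in CPM, and Il1b, Tnf and Tlr2; the other list members in the text were named for their role or their extreme value after their values were seen. Alternatives were other scalings, filters, only the 6 libraries, thinned depth, DESeq2 1.42.0 and leaving out each library. The level classes under library size only were added after seeing the data. Some genes and 1 gene list are not reported here.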

Additional observations from a re-analysis of the deposited data

How the results depend on the processing

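The counts of called genes depended most on the scaling: with library size only, 6882 genes were called higher, 2380 lower and 2306 at least 2-fold higher, against 4474, 4123 and 1510 with TMM. In the other alternatives run these counts stayed within 1.5 times of those with TMM, and over all 16 alternatives so did the number at least 2-fold lower. The total called ran from 7770 to 9262 over the 16, from 8102 to 8710 when a library was left out, and was 8075 with DESeq2. Among 160 genes named by rule, the log2 changes of Orc4 and Rbbp8 turned to 0.147 and 0.00394 with library size only. The 128 counts of list members changed at least 2-fold gave 92 values over 1.5 times away from the count with TMM across all alternatives, 37 of them with library size only. No paired analysis was possible because the labels give no pairing between the compared groups, whose library codes share no letter. Limits: with 3 libraries a group, all codes of 1 letter in one arm, unstated culture origin and labels that the inflammatory genes run against, each direction holds only for the libraries as labelled. Leaving out B2, the deepest library, moved list counts by over 1.5 times more often than leaving out any other library.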
